A study of Mus musculus with 2 samples.

Results

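Receptors that guide T cells between blood, lymph node and tissue were examined here as 9 loci: Ccr7, S1pr1, Cxcr3, Cxcr4, Cxcr5, Cxcr6, Ccr4, Ccr6 and Ccr8. The data were a list of genomic elements scored by STARR-seq, a reporter assay in which fragments cloned into a transcribed part of a plasmid drive their own transcription. An element was assigned to a locus when the transcription start site (TSS) closest to its midpoint, among protein-coding genes, was that of the receptor gene and lay at most 100000 bp away. By this rule 14 of the 10531 listed elements belonged to the 9 loci. The assignment rule used position only, but the list itself holds only elements with an adjusted p of at most 0.01 in this assay. The 9 genes were also chosen with earlier results of these data known.

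The cells were mouse CD4 T cells of strain C57BL/6NJ, naive when activated in culture, with the plasmids brought in by transient transfection and held as episomes. Per the labels, treatment lasted 3 days with antibodies to CD3e, CD28, interleukin-4 and interferon-gamma together with interleukin-2. The labels show 0.25 µg/mL for the CD3e antibody and 1 µg/mL for the CD28 antibody in replicate 2, and 2 µg/mL for the interferon-gamma antibody and 10 ng/mL for interleukin-2 in replicate 1. There was 1 group of 2 biological replicates, which share a donor record but are separate biosamples, and no second condition. Age and developmental stage are given as unknown and sex as not collected. The assay reads plasmid fragments, not cellular RNA, so neither the identity of the cells nor the levels of the receptors could be checked against marker genes.

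Each element carries 1 effect, 1 p-value and 1 adjusted p-value, deposited by the authors for both replicates together. The effect is taken here as log2, since no source used here states its base or its reference. An element with an effect above 0 is called positive and is likely one with more reporter RNA than its plasmid input gives, and one below 0 is called negative. No replicate values were listed, so no spread between replicates can be given for any element, and the read depth is unknown. The adjusted p-values are those of a Benjamini-Hochberg adjustment over 114722 tests, of which the 10531 listed elements, at an adjusted p of at most 0.01, are 9.18%. Which regions near the 9 genes were tested but not listed was not analysed here, so an inactive and an untested locus cannot be told apart.

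As background, chemokine receptors are G protein-coupled receptors that make cells migrate towards their chemokine ligands. CCR7 brings naive and central memory T cells into lymph nodes, and S1PR1, a receptor for sphingosine 1-phosphate, lets them leave again. Activated T cells lose S1PR1 from the surface for a time and change their set of chemokine receptors as they become effector or helper cells. CXCR5 marks follicular helper cells, CXCR3 marks T helper 1 cells, CCR4 and CCR8 are linked to T helper 2 and regulatory cells, and CCR6 to T helper 17 cells. CXCR4 responds to CXCL12 in bone marrow and many tissues, and CXCR6 to CXCL16 on tissue and myeloid cells.

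Of the 9 loci, 7 had at least 1 assigned element, and 31.2% of all 21924 protein-coding genes did. A positive element was assigned to 6 of the 9 loci (16.0% of protein-coding genes) and a negative one to 3 (19.7%). S1pr1 had 4 elements, Ccr7 and Ccr4 had 3 each, and Cxcr3, Cxcr5, Ccr6 and Ccr8 had 1 each. Cxcr4 and Cxcr6 had none. At least 3 elements were assigned to 589 protein-coding genes, 2.69% of them, and at least 4 to 180, or 0.821%. Genes differ in the length of DNA nearest to them, which these shares do not take into account.

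Of the 14 elements, 11 were positive and 3 negative. Positive elements made up 51.3% of the whole list and negative elements 48.7%. Judged by the midpoint, however, 51.5% of listed elements lay within 1000 bp of a TSS and 0 of the 14 did. Among the 5098 listed elements away from any TSS, 84.7% were positive, close to the 78.6% of the 14. The positive effects at the receptor loci ran from 0.63 to 2.16 with a median of 0.97, against a median of 1.36 over all positive elements. Of the 11, 7 lay below the lower quartile of positive listed effects (0.99) and 2 above their median. An adjusted p of at most 0.001 was deposited for 4 of the 14 elements and for 62.7% of the list.

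**Figure D1:**
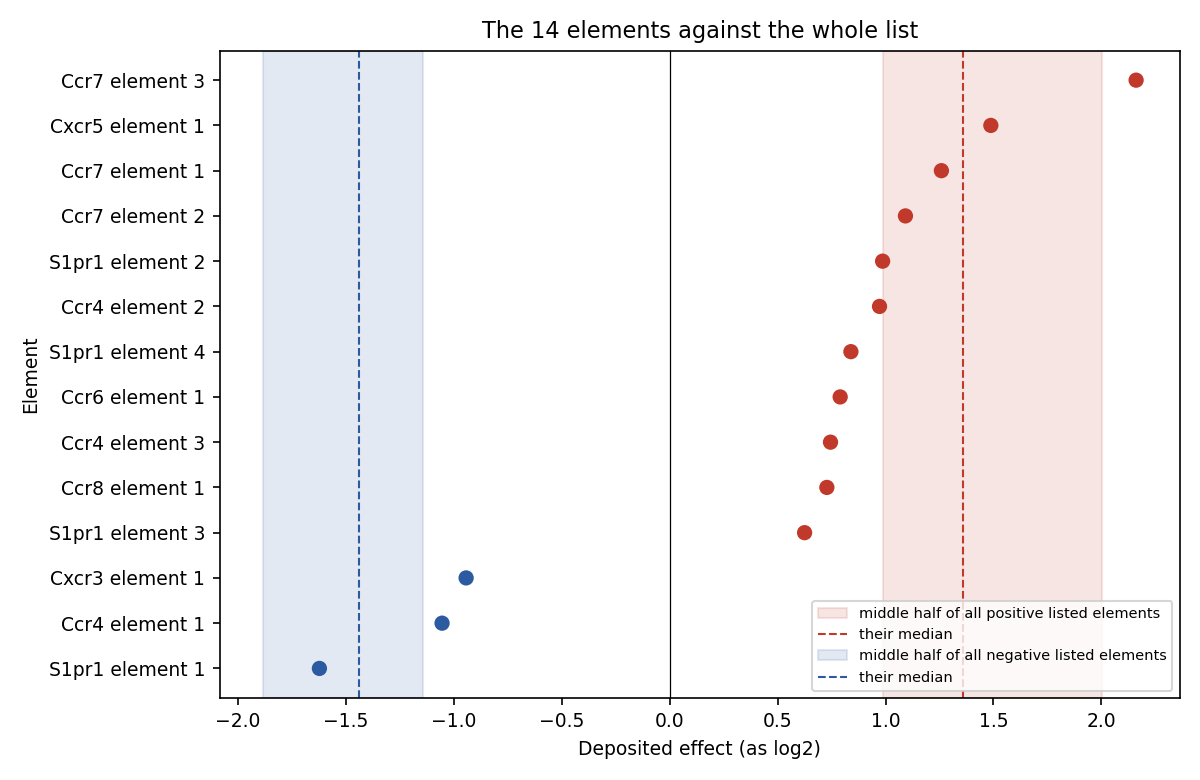
The 14 elements of the receptor loci in order of their deposited effect (horizontal axis, taken as log2), with shaded bands from the lower to the upper quartile of all positive (red) and all negative (blue) listed elements and dashed lines at their medians. Ccr7 element 3 (2.16) lies above the upper quartile of positive elements (2.00), while 7 of the 11 positive elements lie below the lower quartile (0.99).

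The sequences of the elements on which the account turns are shown next. They are the element of largest absolute effect at each of the 7 loci, whole or as a stretch of 300 bases, and 3 more chosen after their values were seen. All are the plus strand of mm10, read from the RefSeq copy of GRCm38.p6, 5′ to 3′. Capitals mark matches on either strand to fixed words for factors of T cells. The word TGANTCA stands for AP-1, and TGACGTCA for CRE, the site of the CREB and ATF factors. The ISRE word is GAAA followed by any pair of bases and GAAA again. NFAT is searched as GGAAAA. For RUNX factors, TGTGGT and its variant TGCGGT are both counted. The ETS words are CCGGAAG and, as the other form, CAGGAAG. Factors of the GATA family are given AGATAA and, likewise, TGATAA. The NFKB word begins with GGGA and ends with CC at a total length of 10 bases. STAT is TTCNNNGAA. TCF and LEF factors share the word CTTTGAN. FOX is GTAAACA, the T-box word is AGGTGTGA, and ROR is NTAGGTCA. Words for SP factors (GGGCGG) and for KLF factors (CACCC) were counted but are not capitalised. Words may overlap, and each is counted. A match is a description of the letters and not a shown binding site. The first set is from Ccr7 and S1pr1, the genes of lymph node entry and exit.
Ccr7 element 3 (chr11:99168239-99168538): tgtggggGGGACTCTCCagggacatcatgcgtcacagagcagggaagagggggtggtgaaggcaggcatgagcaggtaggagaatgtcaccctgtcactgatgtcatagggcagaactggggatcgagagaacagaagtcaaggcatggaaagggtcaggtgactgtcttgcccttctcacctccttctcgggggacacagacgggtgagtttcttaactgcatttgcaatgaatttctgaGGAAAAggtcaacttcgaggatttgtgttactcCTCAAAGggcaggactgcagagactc
S1pr1 element 1 (chr3:115661139-115661438): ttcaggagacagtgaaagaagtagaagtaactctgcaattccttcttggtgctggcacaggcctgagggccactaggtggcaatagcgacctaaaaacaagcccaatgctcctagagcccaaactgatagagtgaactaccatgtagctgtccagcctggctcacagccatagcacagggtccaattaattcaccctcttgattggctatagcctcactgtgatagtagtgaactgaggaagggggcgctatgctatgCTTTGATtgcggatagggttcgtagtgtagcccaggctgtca
S1pr1 element 2 (chr3:115673510-115673809): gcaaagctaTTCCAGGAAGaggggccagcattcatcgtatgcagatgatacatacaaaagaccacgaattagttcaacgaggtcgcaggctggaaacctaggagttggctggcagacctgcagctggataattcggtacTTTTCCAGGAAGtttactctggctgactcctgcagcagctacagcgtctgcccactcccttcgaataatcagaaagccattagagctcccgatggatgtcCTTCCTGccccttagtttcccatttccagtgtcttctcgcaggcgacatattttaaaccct
S1pr1 element 3 (chr3:115728301-115728575): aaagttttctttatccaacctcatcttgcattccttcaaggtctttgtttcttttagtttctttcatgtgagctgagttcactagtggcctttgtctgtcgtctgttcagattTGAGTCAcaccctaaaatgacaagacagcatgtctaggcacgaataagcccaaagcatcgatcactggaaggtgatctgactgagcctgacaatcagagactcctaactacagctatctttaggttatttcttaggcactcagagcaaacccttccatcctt

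The next set is from the effector and helper receptors. Ccr4 element 3 is shown because it is whole at 50 bases and holds none of the words. Of the 244 listed elements of this width, 18.03% held a KLF word, 10.7% an SP word and 5.74% a RUNX word. Lacking any given word is therefore the usual case at this width. The labels give a size range of 200 to 400 for both replicates, without a unit. If these are fragment lengths in bases, the fragments reached beyond this element, and its letters do not cover all that was assayed.
Cxcr3 element 1 (chrX:101737404-101737703): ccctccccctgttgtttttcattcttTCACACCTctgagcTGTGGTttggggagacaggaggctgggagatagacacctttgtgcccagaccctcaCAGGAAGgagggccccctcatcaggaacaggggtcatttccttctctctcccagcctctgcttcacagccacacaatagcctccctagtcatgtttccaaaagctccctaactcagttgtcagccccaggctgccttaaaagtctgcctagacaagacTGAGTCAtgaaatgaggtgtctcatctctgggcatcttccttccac
Cxcr5 element 1 (chr9:44563067-44563366): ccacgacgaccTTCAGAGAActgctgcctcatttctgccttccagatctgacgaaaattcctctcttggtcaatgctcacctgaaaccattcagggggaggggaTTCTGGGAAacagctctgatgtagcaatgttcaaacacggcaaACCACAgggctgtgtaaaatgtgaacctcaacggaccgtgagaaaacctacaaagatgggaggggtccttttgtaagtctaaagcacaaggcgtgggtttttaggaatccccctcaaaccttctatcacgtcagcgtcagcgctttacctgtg
Ccr4 element 1 (chr9:114468601-114468900): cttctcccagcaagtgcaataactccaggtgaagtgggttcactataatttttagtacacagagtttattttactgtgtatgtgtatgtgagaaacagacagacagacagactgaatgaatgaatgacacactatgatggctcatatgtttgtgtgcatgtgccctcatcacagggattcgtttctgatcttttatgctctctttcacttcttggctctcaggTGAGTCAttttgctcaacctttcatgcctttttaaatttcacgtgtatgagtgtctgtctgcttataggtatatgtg
Ccr4 element 3 (chr9:114500276-114500325): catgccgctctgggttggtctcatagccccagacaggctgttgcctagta
Ccr6 element 1 (chr17:8210089-8210388): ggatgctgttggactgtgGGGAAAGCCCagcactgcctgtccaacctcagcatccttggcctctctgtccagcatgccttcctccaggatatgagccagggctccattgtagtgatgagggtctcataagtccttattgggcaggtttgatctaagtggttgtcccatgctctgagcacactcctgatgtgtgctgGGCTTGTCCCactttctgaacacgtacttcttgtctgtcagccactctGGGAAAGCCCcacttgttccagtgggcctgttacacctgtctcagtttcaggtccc
Ccr8 element 1 (chr9:120082600-120082899): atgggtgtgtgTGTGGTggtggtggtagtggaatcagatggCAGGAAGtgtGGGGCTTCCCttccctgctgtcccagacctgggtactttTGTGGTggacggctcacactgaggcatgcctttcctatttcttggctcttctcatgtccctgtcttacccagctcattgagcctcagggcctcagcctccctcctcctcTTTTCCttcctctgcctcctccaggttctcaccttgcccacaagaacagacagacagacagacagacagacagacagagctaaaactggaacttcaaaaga

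Ccr7 had the strongest element of the 9 loci, and all 3 of its elements were positive. The gene lies on the minus strand of chromosome 11 (99144196 to 99155077, mm10). Element 3 (99168201 to 99168575, 375 bp) lay 13311 bp upstream of the TSS in intergenic sequence and had an effect of 2.16, or 4.47-fold if log2 (the authors' adjusted p = 3.61e-07). That effect exceeded 78.5% of all positive listed effects, and it was the 1 element of the 14 past an absolute effect of 2, a size reached by 22.8% of the list. Element 1 (99132301 to 99132700, 400 bp) lay 22577 bp downstream of the TSS, beyond the 3′ end of the gene, with 1.26 (the authors' adjusted p = 2.59e-05). Element 2 (99160726 to 99161200, 475 bp) lay 5886 bp upstream with 1.09 (the authors' adjusted p = 2.51e-05). The upstream pair was separated by 7000 bp. No other listed element lay within 100000 bp of the Ccr7 TSS.

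The Ccr7 elements held few of the words searched. In element 3, as the capitals show, these were an NFKB word (GGGACTCTCC), an NFAT word and a TCF/LEF word, besides 4 KLF words. Of the 263 listed elements of the same width, 31.6% had an NFKB word, 29.7% an NFAT word and 27.8% a TCF/LEF word, so each is common at this length. Element 1 held a RUNX word and an NFAT word, present in 29.4% and 30.2% of elements of its width, and a KLF word. Element 2 held a KLF word only, as 70.7% of elements of its width did. None of the 3 held an AP-1 or ISRE word.

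S1pr1 had the most elements, and they were of both signs. The gene lies on the minus strand of chromosome 3 (115710433 to 115715072), and all 4 elements were intergenic. Element 1 (115661101 to 115661475, 375 bp) lay 53784 bp downstream of the TSS and was negative at -1.62 (the authors' adjusted p = 0.00697), the largest negative effect among the 14 and the element farthest from its gene. Element 2 (115673401 to 115674025, 625 bp) lay 41359 bp downstream, 11925 bp from element 1, and was positive at 0.99 (the authors' adjusted p = 0.00655). Elements 3 (115728301 to 115728575, 275 bp) and 4 (115729151 to 115729675, 525 bp) formed a pair 575 bp apart, 13366 and 14341 bp upstream. Their effects were 0.63 (the authors' adjusted p = 0.00999974) and 0.84 (the authors' adjusted p = 0.00101).

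Elements 2 to 4 had small effects, and element 1 did not, being larger in size than 62.0% of negative listed effects. Element 3 had the largest p-value of all 10531 listed elements, at the edge of the list, and its effect exceeded only 0.462% of positive listed effects. The effect of element 4 exceeded 12.6% of them, and that of element 2 exceeded 24.8%. For the upstream pair, the nearest TSS of any gene type belonged to Gm9889, a long noncoding RNA gene, at 13288 and 14263 bp. Their assignment to S1pr1 therefore holds among protein-coding genes only.

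The S1pr1 elements differed in their words. Element 2 held 11 words of 5 kinds in addition to 2 KLF words and a GATA word: 3 NFAT, 3 ETS, 2 STAT, 2 RUNX and 1 FOX. Both STAT words read TTCCAGGAA and overlapped an ETS word, as the printed stretch shows. Of the 326 listed elements of its width, 15.3% held a STAT word and 7.06% a FOX word, while 1.87% of the whole list held at least 2 STAT words. Element 4 held 3 TCF/LEF words (a match in 32.4% of its width), 2 GATA words, a FOX word (5.92%) and a KLF word (74.9%). FOXO1 is known to act on S1pr1 through KLF2, which is background and was not measured here. Element 3 held the 1 AP-1 word among all positive elements of the 9 loci (29.9% of its width) and a KLF word (53.1%). Element 1, the negative one, held a TCF/LEF, a GATA and a KLF word.

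**Figure D2:**
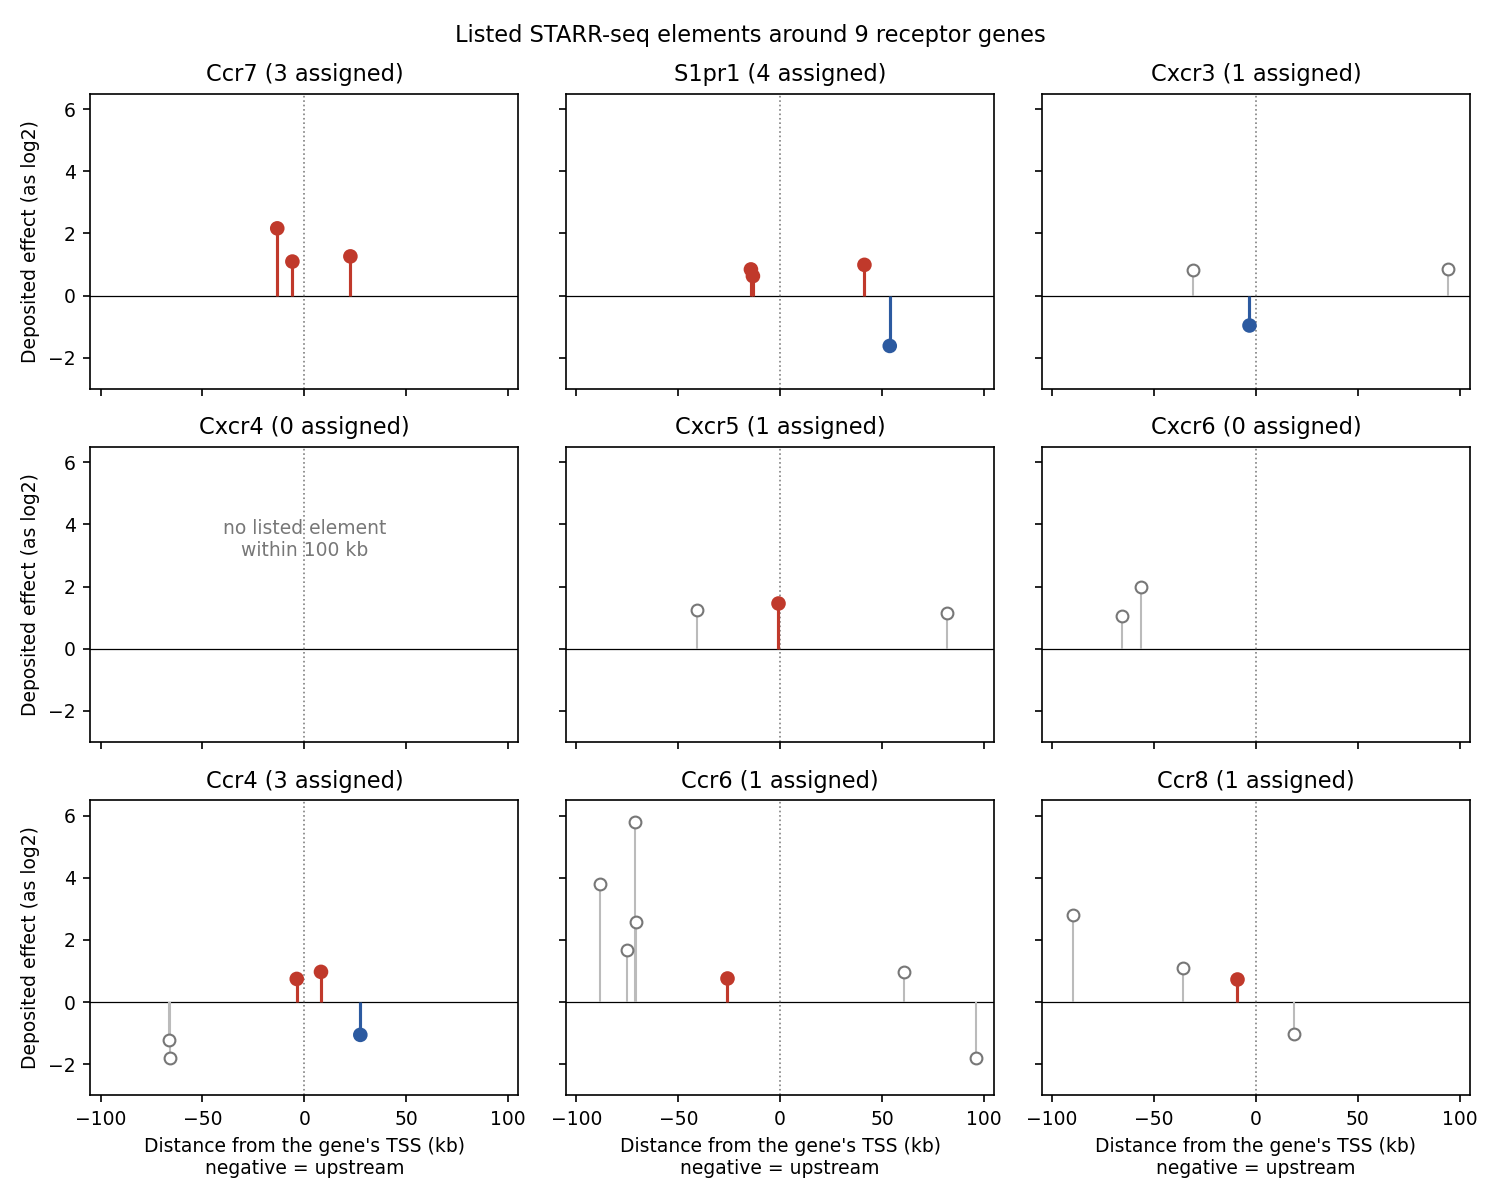
Deposited effect (vertical axis, taken as log2) of listed elements against distance from the gene's nearest TSS in kb (horizontal axis, negative upstream), with 1 panel for each of the 9 genes. Red and blue points are positive and negative elements assigned to the gene, and open points are elements within 100 kb that are nearer to another protein-coding gene. Ccr7 has 3 positive elements, S1pr1 and Ccr4 have both signs, and the highest open points, near Ccr6, reach 5.79.

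Ccr4 also carried elements of both signs. The gene lies on the minus strand of chromosome 9 (114490316 to 114504916). Element 1 (114468276 to 114468900, 625 bp) was negative at -1.05 (the authors' adjusted p = 0.0069), 27450 bp downstream in an intron of Glb1, the gene of the lysosomal enzyme beta-galactosidase. It was the 1 intronic element of the 14 by the basic transcript set. Element 2 (114487526 to 114488250, 725 bp) lay 8150 bp downstream of the nearest TSS and had 0.97 (the authors' adjusted p = 0.00492). Element 3 (114500276 to 114500325) was only 50 bp wide, lay 3738 bp upstream of the nearest TSS in the basic set, and had 0.75 (the authors' adjusted p = 0.00225). In the comprehensive GENCODE set this element lies in an intron of a longer Ccr4 transcript. Of 10521 listed elements, 244 had this width. Element 1 held an NFKB word 16 bp and an AP-1 word 239 bp from its midpoint, a TCF/LEF word and 4 KLF words. Element 2 held STAT, RUNX, ETS, TCF/LEF and KLF words, each once.

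The element of Cxcr3 was negative. It lay on chromosome X (101737201 to 101737725, 525 bp), 3194 bp upstream of the TSS of the gene (101731535 to 101734269, minus strand), with -0.94 (the authors' adjusted p = 0.00671). This was a small negative effect, larger in size than 8.02% of negative listed effects. The element held 2 T-box words, 1 of them in the printed stretch, where 2.44% of the 287 elements of its width held any. Only 6 of 10521 listed elements held at least 2, a count made after this element had been seen. T-bet, the T-box factor of T helper 1 cells, is a known activator of Cxcr3, and its binding was not measured here. The element also held an AP-1, a RUNX, an ETS and an NFKB word, and it had no CpG dinucleotide.

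Cxcr5 had the element closest to a TSS. It lay on chromosome 9 (44562726 to 44563625, 900 bp), with its midpoint 1298 bp upstream of a TSS of the gene (44511787 to 44561877, minus strand), just outside the promoter window. Its effect of 1.49 (the authors' adjusted p = 6.57e-06), or 2.80-fold if log2, was the second largest positive effect among the 14 and exceeded 56.8% of positive listed effects. Its words were 2 STAT words, TTCAGAGAA and TTCTGGGAA, a RUNX word, an SP word and 5 KLF words. A STAT word was held by 13.6% of the 184 listed elements of the same width, and an SP word by 86.96% of them. STAT5 is among the factors through which IL-2, present in the culture, acts. The STAT word does not tell STAT factors apart, and STAT5 binding was not measured here.

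The single elements of Ccr6 and Ccr8 were weak and positive. The Ccr6 element lay on chromosome 17 (8209751 to 8210725, 975 bp), 25974 bp upstream of the nearest TSS in the basic transcript set and 25805 bp from the start of the gene (8236043 to 8257141, plus strand), with 0.79 (the authors' adjusted p = 0.00453). It held 3 NFKB words, 2 of them the same letters (GGGAAAGCCC), but 67.1% of elements of its width held an NFKB word. An NFAT, an ETS, a TCF/LEF and 2 KLF words were found as well. A ROR word was not among its letters. RORgammat, the ROR factor of T helper 17 cells, was not measured here. The Ccr8 element lay on chromosome 9 (120082576 to 120083150, 575 bp), 9251 bp upstream of the gene (120092114 to 120094906, plus strand), with 0.73 (the authors' adjusted p = 0.00548). It held the 1 CRE word (TGACGTCA) of the 14 elements, held by 3.34% of the 299 elements of its width. RUNX words numbered 3, where 48.5% of that width held any. NFAT, ETS, NFKB, STAT, TCF/LEF, SP and KLF words were each found once. The effects of the Ccr6 and Ccr8 elements exceeded 8.08% and 3.46% of positive listed effects.

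Cxcr4 and Cxcr6 had no element under the rule. For Cxcr4, on chromosome 1 (128588199 to 128592293, minus strand), no listed element of any gene lay within 100000 bp. The nearest were 3 positive elements for which Cxcr4 was the closest protein-coding gene, 178685, 194960 and 240260 bp upstream. Their effects were 0.88, 1.01 and 1.91, the last at 128832226 to 128832875 (the authors' adjusted p = 3.4e-09). At the other side of the distance limit, the farthest element inside was S1pr1 element 1 at 53784 bp, so no element nearest to one of the 9 genes lay close to the limit of 100000 bp. For Cxcr6, on chromosome 9 (123806475 to 123811760, plus strand) within a cluster of chemokine receptor genes, 2 positive elements lay within the limit but nearer to other genes. One, 56600 bp upstream, was assigned to Ccr9 (1.99, the authors' adjusted p = 0.00369), and the other, 65512 bp upstream, to Lztfl1 (1.05, the authors' adjusted p = 0.000111). Both lay in introns of Ccr9 transcripts.

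In all, 17 listed elements lay within 100000 bp of a TSS of the 9 genes but nearer to another gene, 13 positive and 4 negative, from -1.80 to 5.79. The largest lay by Ccr6, where 4 positive elements 70512 to 88487 bp upstream, at Rnaset2a and Fgfr1op, had 1.66 to 5.79. All 4 had another copy in the genome at 95% identity or more over at least 90% of their length. None of the 14 assigned elements had such a copy, and neither did the rest of the 17. Copies were not sought over the whole list, so no background share can be given. Near Ccr8, an element in an intron of Cx3cr1 had 2.80 (the authors' adjusted p = 8.14e-11) and was nearest to Csrnp1, while the Ccr8 element itself had 0.73. Nearness alone decided these assignments and does not show which gene an element acts on.

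The 14 elements were of middling GC content. It ran from 42.2% to 59.3% with a median of 50.3%, against 57.4% over the list. The positive elements had a median of 50.4%, against 46.5% for positive listed elements away from a TSS. The 3 negative elements had 47.7% (S1pr1), 45.6% (Ccr4) and 53.1% (Cxcr3), against a median of 60.7% over negative elements away from a TSS and 67.6% over all negative elements. A GC content of 53.1% or less was found in 229 of 780 negative elements away from a TSS (29.4%), and in 274 of all 5122 (5.35%). At 45 to 50% GC, 95.3% of listed elements away from a TSS were positive, and 3 of the 5 elements of the receptor loci were. At 50 to 55% GC, 87.7% were, and 5 of the 6. The 1 element at 40 to 45% and the 2 at 55 to 60% were positive, as were 94.7% and 71.5% of listed elements away from a TSS. The median width was 525 bp against 600 bp over the list, and the median share of bases masked as repeats was 13.5% against 6.67%.

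**Figure D3:**
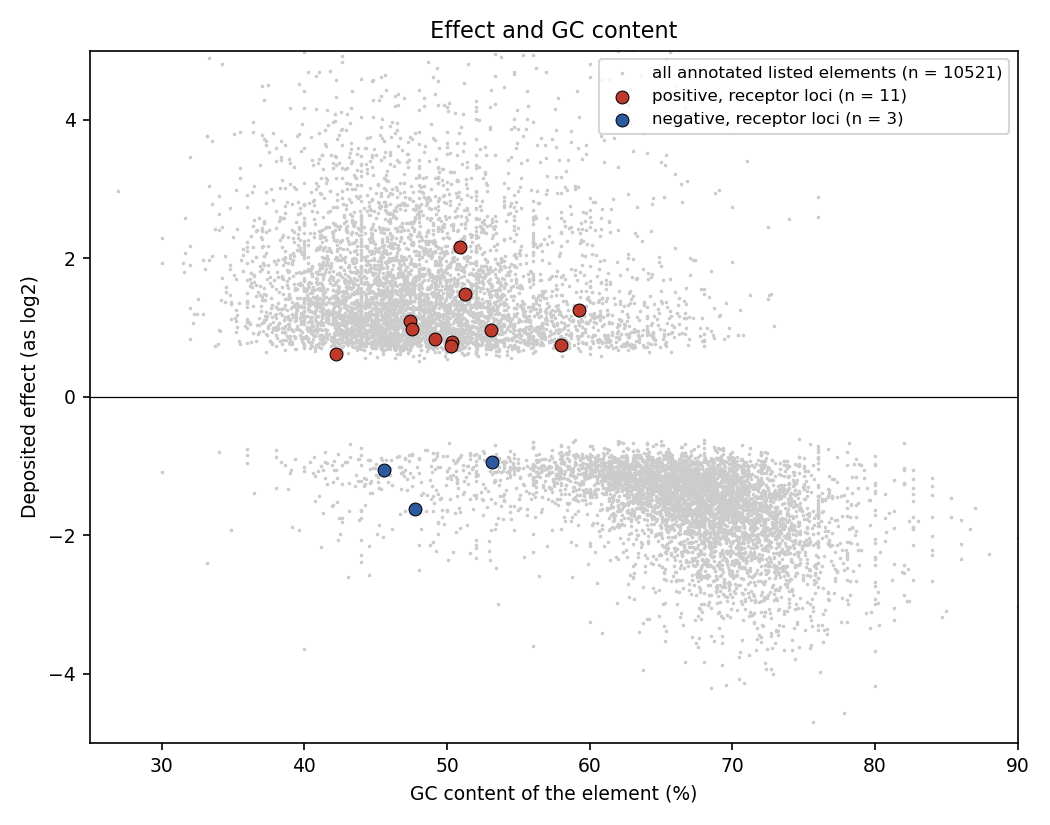
Deposited effect (vertical axis, taken as log2) against GC content in percent (horizontal axis) for 10521 listed elements (grey) and the 11 positive (red) and 3 negative (blue) elements of the receptor loci. The 3 negative elements lie at 45.6 to 53.1% GC, to the left of most negative elements, and 78 elements with an absolute effect above 5 fall outside the plot.

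Of the 15 motifs searched, KLF and TCF/LEF words were found in the most elements, and ISRE and ROR words in none. An AP-1 word was found in 1 of 11 positive elements, where 41.2% of the positive listed elements away from a TSS held one, and in 2 of 3 negative elements, where 21.7% of the negative ones did. In the central 200 bp only the positive element, S1pr1 element 3, held one. AP-1 factors are induced by T cell activation. ISRE, the word of IRF factors, was found in 0 of 14 elements, where 19.9% of positive and 3.85% of negative listed elements away from a TSS held one. RUNX words were found in 6 of 14 elements (41.3% of listed elements away from a TSS), TCF/LEF in 7 (30.7%), NFAT in 5 (32.9%), ETS in 5 (24.7%), NFKB in 5 (29.7%), STAT in 4 (18.2%), GATA in 3 (27.95%), FOX in 2 (6.96%), SP in 2 (17.2%) and KLF in 12 (62.8%). A ROR word was found in 0 of 14 (6.20% of listed elements away from a TSS). With 14 elements these counts are a description, and no difference from the list was tested.

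**Figure D4:**
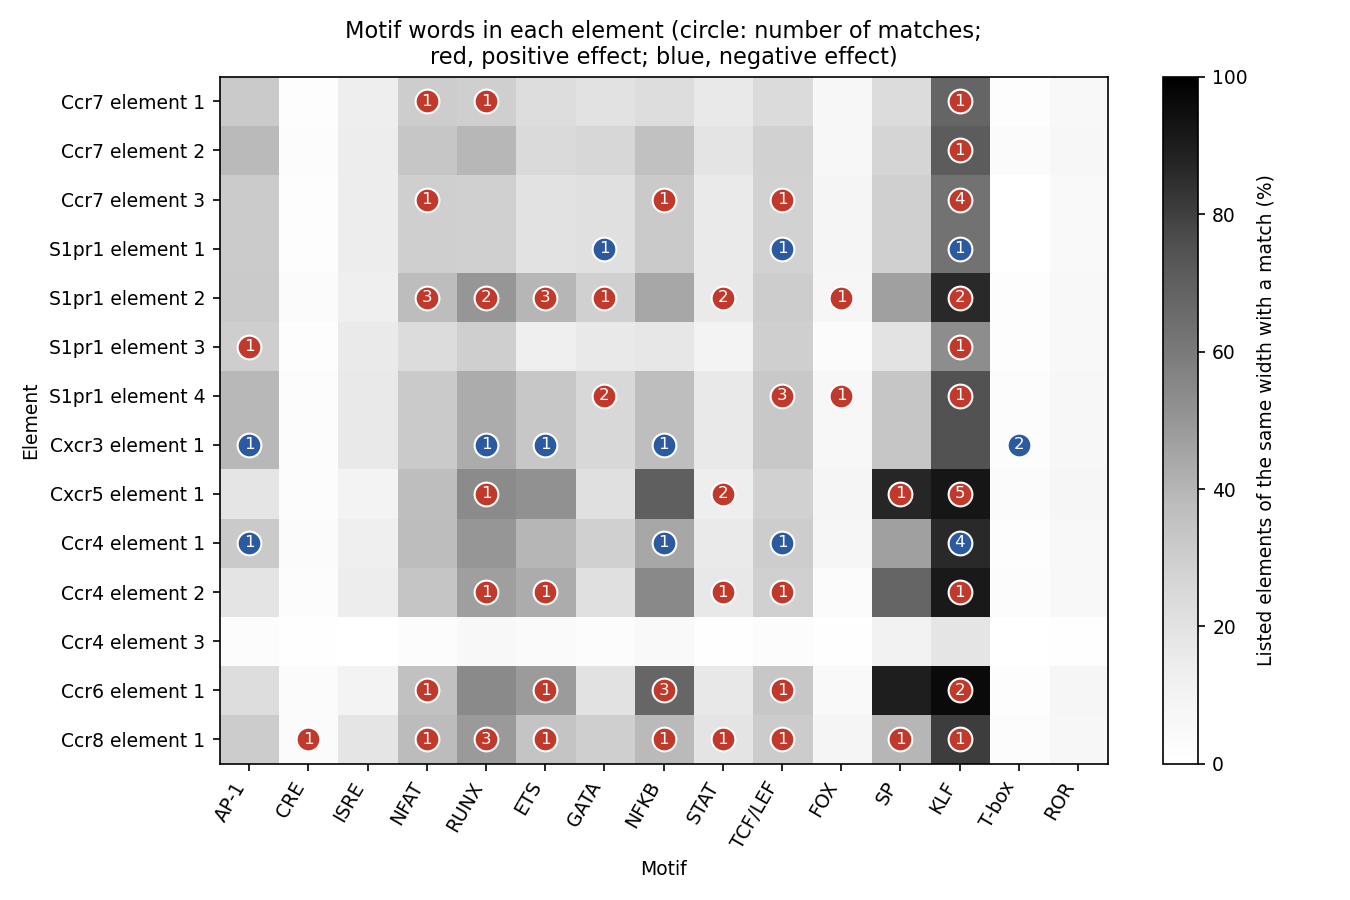
Words found in each of the 14 elements (rows) for the 15 motifs (columns): the number in a circle counts matches on either strand, red for positive and blue for negative elements, and the grey shade is the percentage of listed elements of the same width with a match. The ISRE and ROR columns are empty, KLF fills 12 of 14 rows, and the Cxcr3 element holds 2 T-box words.

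Other genes of T cell trafficking were taken from lists chosen by function, of which 60 of 61 genes were found in the annotation. Of these, 19 (31.7%) had an assigned element, against 31.2% of protein-coding genes, with 31 positive and 5 negative elements in all. Positive elements made up 51.3% of the whole list and 84.7% of listed elements away from a TSS. Among 24 other receptors, 8 (33.3%) had elements, and all 13 elements were positive. Their median was 1.24 against 0.97 for the positive elements of the 9 loci, a difference that was not tested. The largest were Ccrl2, an atypical chemokine receptor, with 3 elements of 2.82 to 3.16, Ccr2, the receptor of inflammatory monocytes, with 0.89 and 2.79, Cmklr1, the chemerin receptor, with 2.40, and Ccr9, the gut homing receptor, with 1.99. The repeat-masked share was 86.4% for the strongest Ccrl2 element and 90.1% for the Cmklr1 element. As at the 9 loci, 0 of these 13 elements lay within 1000 bp of a TSS, so the 84.7% is the share to set beside them.

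Genes of receptor signalling and of retention in lymph nodes had 8 positive and 4 negative elements at 6 of 18 genes. That share of genes was 33.3%, close to the 31.2% of all protein-coding genes. All 4 negative elements lay within 1000 bp of a TSS: Grk6 (-1.62), Gnai2 (-1.15), Klf2 (-0.94) and Grk2 (-0.84). Most negative elements of the list did too, with only 780 of 5122 away from a TSS. Gnai2 encodes the G protein subunit through which chemokine receptors signal, and the GRK kinases desensitise them. Klf2, which activates S1pr1 transcription, also had a positive element of 1.06 in an intron of Eps15l1. Gnai2 and Grk2 each had a positive element as well, of 0.91 in a Gnai2 intron and 0.89 in a Kdm2a intron. Rgs2, a regulator of G protein signalling, had 2, at 72377 and 82177 bp upstream (0.98 and 1.28). Cd69, whose product removes S1PR1 from the surface of activated cells, had 3 positive elements of 0.68, 0.76 and 1.07. The last lay 9227 bp upstream in intergenic sequence. The elements of 0.68 and 0.76 lay 42316 and 38953 bp downstream in introns of 2310001H17Rik. That of 0.68 was within 1000 bp of a TSS of a gene other than Cd69. Of the adhesion genes, Cd44 had 4 positive elements (0.82 to 1.56) and Selplg had 1 of each sign (1.30 and -0.95). The positive Selplg element lay in an exon of Coro1c, within 1000 bp of a TSS of a gene other than Selplg. The trafficking genes of this paragraph, unlike those named by size of effect, were picked for their role after their values were known.

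**Figure D5:**
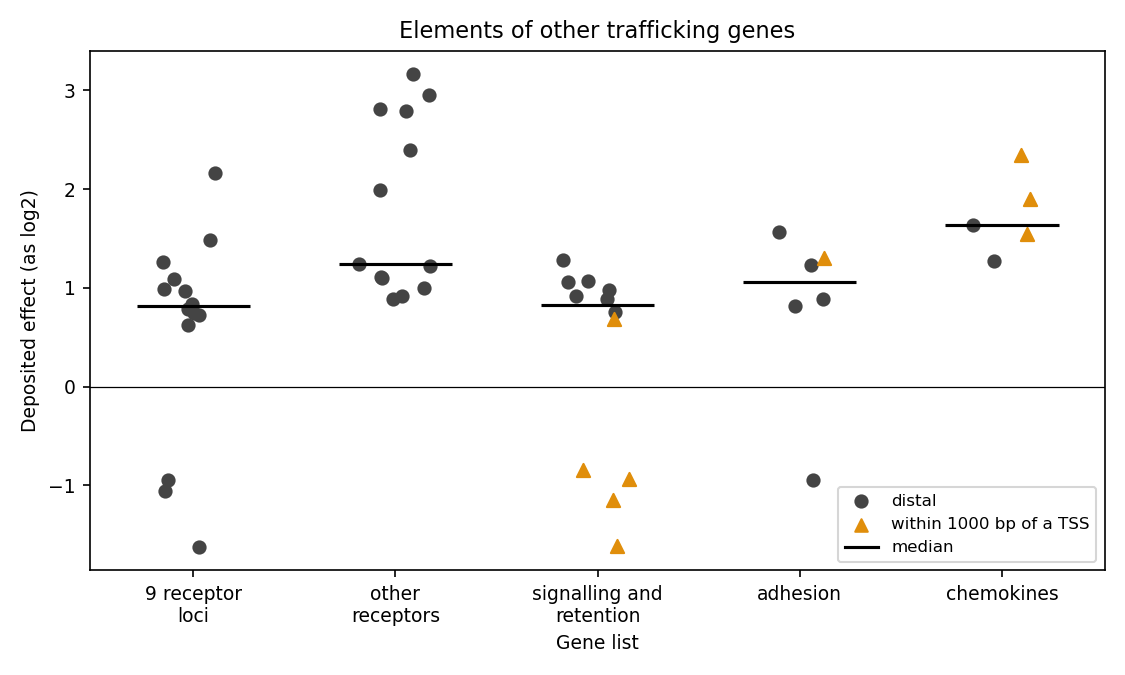
Deposited effect (vertical axis, taken as log2) of each element assigned to the 9 receptor loci and to 4 lists of other trafficking genes (horizontal axis), with circles for elements away from a TSS, triangles for those within 1000 bp of one and lines at the medians. The 9 loci and the 13 elements of other receptors are all circles, and 4 of the 5 negative elements outside the 9 loci are triangles. Over the list, 780 of 5122 negative elements lay away from a TSS.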

How the data were processed

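STARR-seq was measured in 2 biological replicates of activated naive mouse CD4 T cells. The authors deposited 1 element list on mm10, derived from the alignments of both replicates per the file headers. Each element has an effect deposited by the authors, taken here as log2, then the authors' p-value, its adjusted form and the width. The aligner, caller, input and log base are not given in the sources used here. Starts were counted from 1, since end minus start plus 1 equalled the width in every element. Elements were assigned with GENCODE M21 basic transcripts and read from GRCm38.p6. The 10 elements on unplaced scaffolds were not annotated. The 9 genes, the other gene lists and the motif words were chosen with earlier results of these data known. All elements of the 9 loci are named, and of the other lists the 6 genes with the largest absolute effect. Further genes of those lists, Ccl4 among them, were named outside this rule with their values known. No test was run, because the list holds no replicate values, and elements are not replicates. Copies were sought with BLAST+ 2.17.0. BATF, which shares the AP-1 word, was not searched apart. Assignment and word search were tested on simulated data. Python 3.11.15, pandas 2.3.3, NumPy 2.4.6, SciPy 1.17.1, pysam 0.24.0 and samtools 1.23.1 were used.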

Additional observations from a re-analysis of the deposited data

How the results depend on the processing

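Most results moved little under the alternatives. No paired analysis was possible because the list holds 1 value per element for both replicates, and for the same reason no replicate could be left out. With the authors' adjusted p at most 0.001, 4 elements were left, all 4 positive, at 2 loci (Ccr7 and Cxcr5), with a median effect of 1.37, 0 AP-1 words and 2 elements with a RUNX word. Within 250000 bp, 17 elements were assigned at 8 loci, since Cxcr4 gained 3, and 5 held an AP-1 word. With a promoter window of 2000 bp, 1 element, that of Cxcr5, counted as a promoter element. In the central 200 bp, an AP-1 word was found in 1 element, the positive S1pr1 element 3, and a RUNX word in 3. The AP-1 words of the negative Cxcr3 and Ccr4 elements lay 198 and 239 bp from the midpoint. Counting noncoding genes too, 12 elements were assigned, since 2 of S1pr1 went to Gm9889. An AP-1 word without a free base (TGACTCA), chosen after seeing the data, was found in 3 elements, and RUNX as TGTGGT alone in 6, as reported. The unknown depth and the absence of replicate values limit every effect.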

Other observations

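Of 15 chemokine genes found, 3 (20.0%) had elements, against 31.2% of protein-coding genes. All 5 elements were positive, where 51.3% of the list was, with a median effect of 1.64. Of the 5, 3 lay within 1000 bp of a TSS, where 51.5% of the list did. Ccl5, a chemokine made by effector T cells, had 2.35 at 45 bp from its TSS (chromosome 11, 83530351 to 83530775, the authors' adjusted p = 2.79e-09) and 1.64 at 4382 bp upstream. Cxcl10, an interferon-induced ligand of CXCR3, had 1.90 at 99 bp (chromosome 5, 92348801 to 92349175, the authors' adjusted p = 1.65e-08) and 1.28 at 4774 bp upstream. Both Cxcl10 elements lay in introns of Art3. Cxcl9, also a ligand of CXCR3, had no assigned element. Ccl4 had 1.55 at 84 bp. The ligands of the other receptors in the list, Ccl19 and Ccl21a for CCR7, Cxcl12 for CXCR4, Cxcl13 for CXCR5, Cxcl16 for CXCR6, Ccl17 and Ccl22 for CCR4, Ccl20 for CCR6 and Ccl1 for CCR8, had no assigned element. No difference between the lists was tested.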
